A study of Mus musculus with 36 samples.

Results

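Gene expression at zeitgeber time (ZT) 0 was compared between mice fed a high-fat diet and mice fed normal chow, in 3 libraries per diet. These 6 libraries were every library of that time point among the 36 of the study, which sampled both diets at 6 times of day. Both groups were adult C57BL/6J mice, and each diet had been given for 10 weeks. Neither group carried an allele or received an agent beyond the diet, as far as the labels say. RNA came from a dissected region enriched for the suprachiasmatic nucleus (SCN), so the samples are bulk tissue and also hold cells of neighbouring structures. The sample labels number the time point 0 and the table headers give it as ZT 0, the time at which lights come on. All 24883 rows of the tables were considered, and 15173 passed a filter on low values.

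The SCN is the pair of small hypothalamic nuclei that holds the central circadian clock of mammals. In its neurons CLOCK and BMAL1 drive the genes of their own repressors, the Period and Cryptochrome proteins, and light acts on this loop through the retina. The nucleus lies against the base of the brain, next to the optic chiasm, the third ventricle and the meninges. Meningeal fibroblasts make collagens and small proteoglycans, arteriolar smooth muscle makes contractile proteins, macrophages of the brain's borders make lysozyme and scavenger receptors, and the ependymal cells that line the ventricle carry motile cilia. Genes of each of these cell types are therefore read in such a dissection beside those of neurons and glia. A high-fat diet is known to alter feeding rhythms in mice and to act on lipid handling and inflammation in the hypothalamus.

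Values are FPKM, fragments scaled to transcript length and to the number mapped, rescaled so that each library sums to 1000000. The deposited values summed to between 344619 and 409872 per library at ZT 0, and a rough estimate of relative depth from short genes differed 1.55-fold between the deepest and the shallowest of the 6. The 7 transcripts taken as defining the SCN were above 0 in all 6 libraries. Among them Avp, the vasopressin transcript, ran from 821 to 3327, and Vip, the transcript of the clock's light-recipient neurons, from 9.88 to 50.2. Replicate 1 of chow and replicate 3 of high-fat diet were rich in liver transcripts. Alb, which encodes serum albumin, read 1890, 111 and 10.02 in chow replicates 1 to 3 and 1.59, 21.8 and 285 in high-fat replicates 1 to 3. A library counted as liver-rich where Alb was over 10 times its median of all 36 libraries and at least 5 transcripts of the liver list were as well; chow replicate 2 stood at 7.28 times the median and did not meet this rule. Summed over the liver list, the libraries ranged from 179 to 11033 in chow and from 88.4 to 1817 under high-fat diet. Results are therefore given for all 6 libraries and for the 4 that remain without the liver-rich pair, 2 against 2.

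No gene passed the test over all genes. Of 15173 rows tested with limma, 0 (0%) had an adjusted p under 0.05, and the smallest adjusted p was 0.296. At an unadjusted p under 0.05, 338 rows (2.23%) were higher and 254 (1.67%) lower under high-fat diet, 592 (3.9%) in all. In 478 rows (3.15%) every high-fat library lay above every chow library, and in 488 (3.22%) every one lay below, and 47.1% of rows had a log2 difference above 0. Without the liver-rich pair, 0 of 15112 rows (0%) passed and 34.3% had a difference above 0. At an unadjusted p under 0.05, 86 (0.569%) were then higher and 857 (5.67%) lower, 943 (6.24%) in all. The share of the low-p rows that were higher was 57.1% with all 6 libraries, 9.12% without the liver-rich pair and 85.2% with the deposited values left unscaled, so the balance of directions moved with these choices. Transcripts that were lower at this p without the pair had a median GC content of 53.8%, against 49.9% for all rows tested. Those higher without the pair stood at 51.6%. With all 6 libraries the lower and higher rows stood at 51.8% and 51.7%, so each low-p set lay above all rows. The part of base composition in the imbalance of directions was not tested. Individual genes and groups below are therefore described by their values in each library; differences are log2 differences, high-fat minus chow, on the log2(value + 1) scale, each given with its standard error (SE). Counts at p under 0.05 use unadjusted p from limma, and adjusted p is over all rows (Benjamini-Hochberg). The labels do not say that replicates were separate mice, so p-values measure the spread between libraries.

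Of the gene lists examined, that of the meninges and fibroblasts had the largest median difference upward with all 6 libraries. All 16 of its measured genes had higher mean log2 values under high-fat diet, 14 of them at p under 0.05, and in 13 the groups did not overlap. Its median log2 difference was 1.42, against -0.01 over all rows tested. Of all rows, 2.23% were higher at p under 0.05 and 3.15% lay above chow in every high-fat library. Summed over the list, the level was 962, 2658 and 2185 in chow replicates 1 to 3 and 3560, 6066 and 9051 in high-fat replicates 1 to 3. The lowest of the 6 sums and the highest were thus those of the liver-rich libraries. Without them the median difference was 0.85, 14 of the 16 genes were still higher, and 0 reached p under 0.05. The largest median upward was then that of the blood list, 1.59. In bulk tissue, more or fewer cells of a type cannot be told apart from more or less RNA per cell.

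Ptgds, the lipocalin-type prostaglandin D synthase of leptomeninges, was the most abundant member. It read 783, 2343 and 1924 in chow and 3129, 5442 and 7998 under high-fat diet, a log2 difference of 1.76 ± 0.64 (limma adjusted p = 0.956). All 3 high-fat libraries lay above all chow libraries. Lum, a small proteoglycan that organises collagen fibrils (chromosome 10, 97565128 to 97572703, GRCm38), read 1.45, 2.60 and 2.37 in chow and 4.22, 6.30 and 10.4 under high-fat diet, a log2 difference of 1.29 ± 0.35 (limma adjusted p = 0.576). The groups did not overlap, and the difference was 0.82 without the liver-rich pair. Collagen genes on the list, Col3a1 and Col1a2, had the same order of libraries as Lum. Col3a1, of type III collagen, stood at 1.61, 2.93 and 2.35 against 4.33, 6.25 and 15.2, and Col1a2, of type I collagen, at 6.73, 13.3 and 11.2 against 14.2, 19.5 and 40.8. Igf2, a growth factor made by meninges and choroid plexus, stood at 23.4, 49.6 and 48.1 against 60.5, 98.7 and 195. The groups overlapped for Pdgfra (0.16 ± 0.19), which oligodendrocyte precursors also make, and for Col6a1 (0.33 ± 0.78), of type VI collagen.

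**Figure D1:**
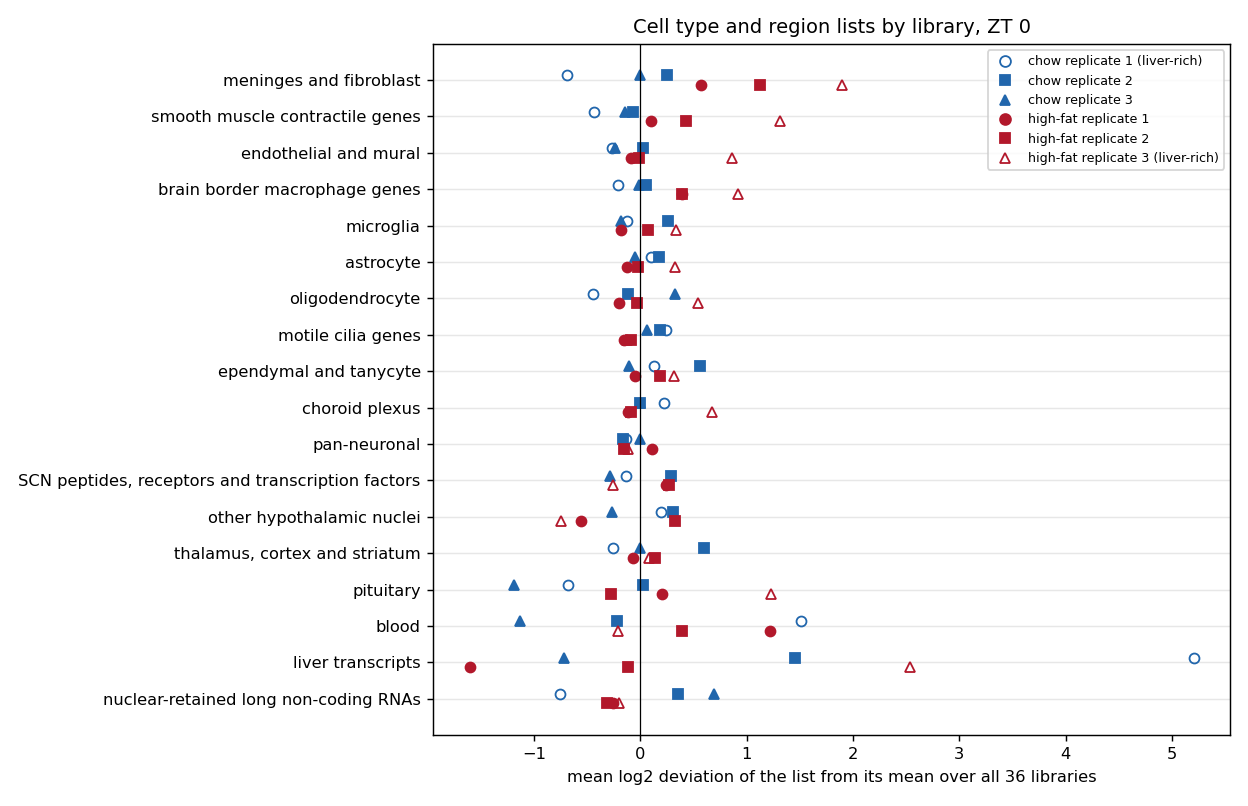
Mean log2 deviation of each cell type or region list from its own mean over all 36 libraries, shown for the 6 libraries at ZT 0; chow is blue and high-fat diet red, and open symbols mark the liver-rich libraries. High-fat libraries lie above all chow libraries for the meningeal, smooth muscle and border macrophage lists and below them for the motile cilia list, while the liver list separates the open symbols from the rest.

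Contractile genes of smooth muscle were higher in the same libraries. The list of these genes, chosen after values had been seen, had 18 measured members, all higher, with a median log2 difference of 0.66. Of these, 10 had p under 0.05 and 11 did not overlap, against 2.23% and 3.15% of all rows in this direction. Acta2, smooth muscle actin (chromosome 19, 34241090 to 34255590, GRCm38), read 5.89, 10.7 and 9.62 in chow and 15.1, 27.0 and 86.1 under high-fat diet. The difference was 1.84 ± 0.49 (limma adjusted p = 0.576), and the highest value was that of the liver-rich high-fat library. Without the liver-rich pair it was 0.93 ± 0.52. Tagln, the actin-binding protein transgelin, stood at 7.20, 13.9 and 12.0 against 20.3, 28.7 and 97.9, and Myh11, smooth muscle myosin, at 1.65, 3.25 and 3.53 against 5.14, 6.51 and 30.1. Cnn1, calponin, stood at 0.25, 0.61 and 0.70 against 1.55, 3.37 and 5.95. Over the list the median was 0.29 without the pair, with 13 of 17 genes still higher and 1 of them, Sncg, at p under 0.05. Cnn1 was too low for that fit.

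Other vascular genes had smaller differences. In the endothelial and mural list, 20 of 23 genes had higher values. Of these, 6 had p under 0.05, and 3 of the 6 were Acta2, Myh11 and Tagln. Over all rows 2.23% were higher at this p. Of the endothelial markers, Cldn5, a tight junction protein, read 56.7, 64.1 and 46.2 in chow and 49.4, 53.1 and 81.1 under high-fat diet (0.11 ± 0.24), and Flt1, a VEGF receptor, differed by 0.04 ± 0.27. Vwf and Cdh5 differed by 0.62 and 0.51 with all libraries and by 0.11 and 0.08 without the liver-rich pair. Kcnj8, a potassium channel subunit of pericytes, read 2.96, 2.73 and 2.45 against 3.25, 3.79 and 3.68, with no overlap, and kept a difference of 0.33 without the pair (0.30 with it). The list's median was 0.27 with all libraries and -0.02 without the liver-rich pair.

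Lysozyme transcripts separated the diets in every library. Lyz2, the lysozyme of macrophages (chromosome 10, 117277331 to 117282321, GRCm38), read 29.4, 25.02 and 22.2 in chow and 64.6, 61.3 and 73.5 under high-fat diet. The difference was 1.35 ± 0.35 (limma adjusted p = 0.576), and it was as large without the liver-rich pair (1.38 ± 0.44). Its near-identical copy Lyz1 read 3.04, 2.17 and 2.36 against 6.02, 5.83 and 7.68, and reads may be shared between both copies. F13a1, the coagulation factor XIII subunit made by border macrophages, read 1.47, 1.25 and 1.43 against 2.44, 2.58 and 3.52 and differed by 0.68 ± 0.21 (0.59 without the pair). Over a list of 8 measured border macrophage genes, chosen after values had been seen and holding Lyz2, all 8 were higher. Of these, 4 had p under 0.05 and 5 did not overlap, against 2.23% and 3.15% of all rows in this direction. The list median was 0.59, and 0.23 without the pair. The list summed to 45.1, 45.6 and 42.5 in chow and 87.8, 85.5 and 114 under high-fat diet, most of it Lyz2. Mrc1 and Cd163, 2 scavenger receptors of these cells, were near the lower limit of the values tested, at 0.59 to 1.54 in chow and 1.13 to 4.35 under high-fat diet. Microglial genes overlapped between the diets: C1qb, the complement subunit, read 90.9, 129 and 84.4 against 103, 121 and 130. On the microglial list 0 of the 19 genes had p under 0.05, against 3.9% of all rows.

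The 11 protein-coding genes that the naming rule took for the smallest p among those higher were mostly secreted or stromal products. Cytl1, a small secreted cytokine-like protein (chromosome 5, 37735519 to 37739820, GRCm38), read 1.62, 4.17 and 2.94 in chow and 15.2, 15.3 and 13.3 under high-fat diet, a difference of 2.05 ± 0.52 (limma adjusted p = 0.576). The 3 high-fat libraries lay close together and far above chow, and the difference was 1.85 ± 0.65 without the liver-rich pair. Crispld2, a secreted glycoprotein, differed by 1.32 ± 0.33, Cyp1b1, a cytochrome P450 of stromal and vascular cells, by 1.18 ± 0.31, and Rcn3, a calcium-binding protein of the secretory pathway, by 1.13 ± 0.30. Wfikkn2, a secreted protease inhibitor domain protein, differed by 0.96 ± 0.24, Cd248, the stromal surface protein endosialin, by 0.71 ± 0.18, and Rspo2, a secreted enhancer of Wnt signalling, by 0.68 ± 0.17. The others have wide expression: Chst14, a dermatan sulfate sulfotransferase, at 0.54 ± 0.14, and Esyt1, an endoplasmic reticulum tether, at 0.59 ± 0.15. The groups did not overlap for any of these 11, Acta2 and Lyz2 included. Without the liver-rich pair their differences ranged from 0.29 (Esyt1) to 1.85 (Cytl1). The naming rule took small p in these same libraries and the same sign without the pair, so neither trait is separate support. Over all rows 3.15% lay above chow in every high-fat library.

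**Figure D2:**
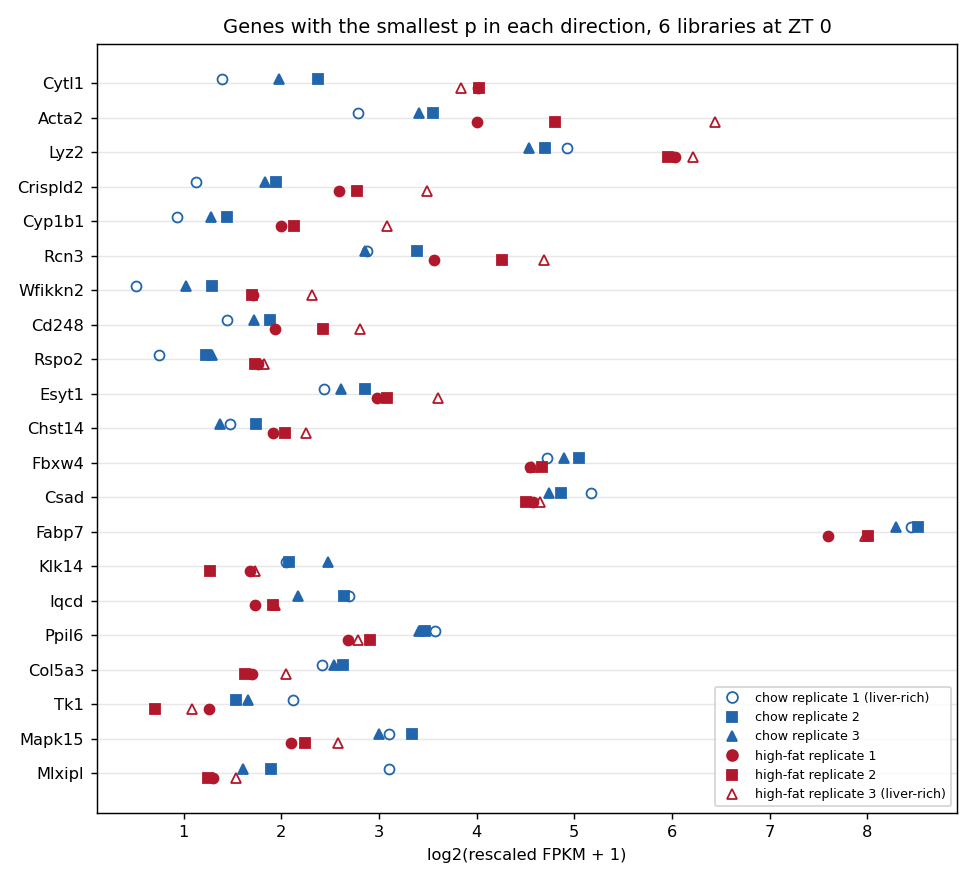
Level of each gene in each of the 6 libraries at ZT 0, as log2(rescaled FPKM + 1), for the genes the naming rule took for the smallest p in each direction, short non-coding RNAs left out; symbols as in the plot of cell type lists. Lyz2 and Cytl1 show tight high-fat groups far from chow, Acta2 spreads widely with the liver-rich high-fat library highest, and Ppil6, Fabp7 and Iqcd show the high-fat libraries below chow.

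Genes with lower values under high-fat diet included several of motile cilia. Ppil6, a gene of the cyclophilin family (chromosome 10, 41490439 to 41514286, GRCm38), read 10.9, 10.1 and 9.64 in chow and 5.41, 6.53 and 5.88 under high-fat diet. The difference was -0.69 ± 0.15 (limma adjusted p = 0.576) and -0.65 without the liver-rich pair. Every high-fat value lay below every chow value, and the spread within each diet was small beside the gap. Iqcd, a subunit of the ciliary dynein regulatory complex, read 5.48, 5.25 and 3.50 against 2.32, 2.78 and 2.82 (-0.64 ± 0.17), and Mapk15, an atypical kinase of the ciliary base, read 7.56, 9.12 and 6.99 against 3.29, 3.74 and 4.99 (-0.83 ± 0.25). The groups did not overlap for these 3 genes, which the naming rule had taken for small p in the same libraries. Over all rows 3.22% lay below chow in every high-fat library.

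A list of motile cilia genes, chosen after these values had been seen and without these 3, had 34 measured members. Of these, 31 were lower and 3 higher, 4 were lower at p under 0.05, and in 15 the groups did not overlap. Over all rows 1.67% were lower at this p and 3.22% lay below chow in every high-fat library. The list's median difference was -0.30, and -0.24 without the liver-rich pair. Summed, the list read 415, 401 and 365 in chow and 312, 353 and 310 under high-fat diet. The 4 were Dnah10, an axonemal dynein heavy chain (2.13, 2.01 and 2.03 against 1.15, 0.77 and 1.52), Zmynd10, a dynein assembly factor (8.28, 9.59 and 7.22 against 5.65, 6.04 and 6.21), Dnaic2, a dynein intermediate chain (10.996, 10.2 and 7.58 against 6.18, 6.88 and 6.24), and Iqcg, a subunit of the dynein regulatory complex (15.4, 19.6 and 21.0 against 13.7, 16.3 and 15.6). Foxj1, the transcription factor of motile ciliogenesis, read 45.1, 33.8 and 27.2 against 22.4, 29.3 and 24.9, with overlapping groups (-0.44 ± 0.29). Tekt2, a microtubule protein of the cilium, was among the 3 on the other side, at 0.15 ± 0.25. Of 13 ependymal and tanycyte genes 5 had higher values with all libraries (median -0.12) and 2 without the liver-rich pair (median -0.26). Over all rows 47.1% and 34.3% had higher values. Vim, the intermediate filament of many non-neuronal cells, read 45.4, 68.4 and 43.6 against 68.3, 79.0 and 170, with the highest value in the liver-rich high-fat library. Its difference was 0.91 ± 0.26, and 0.42 ± 0.26 without the pair. Ccdc153 and Tmem212, of ciliated ependyma, were at -0.59 ± 0.42 and -0.55 ± 0.45.

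Promoter sequence was matched in RefSeq (GRCm38.p6) for 34 of the 42 cilia genes listed, measured or not. RFX transcription factors, which drive ciliary genes, bind the X-box, an inverted repeat of which GTTGCC is one arm. This motif, searched on both strands, was found within 250 bases before the start of 12 of the 34 (35.3%), against 3195 of 27025 genes (11.8%). A match of 6 letters is a description of sequence and not a binding site. The stretches before Ppil6 (chr10:41490341-41490438, plus strand), Dnah10 (chr5:124724835-124725084, plus strand) and Iqcg (chr16:33056191-33056436, minus strand) are shown as examples that hold the motif, in capitals as GTTGCC or its reverse complement. Ppil6 is not one of the 42 listed genes. Dnaic2, lower at p under 0.05, also holds the motif, and so does Tekt2, whose difference was 0.15 ± 0.25. Each stretch is written 5′ to 3′ without bases annotated as untranslated region. The match nearest to the RefSeq start begins at -11 in Ppil6, -20 in Dnah10 and -19 in Iqcg. GENCODE M21 places Iqcg at 33012683 to 33056218 on chromosome 16, so this match in Iqcg lies inside the gene by that annotation.
Ppil6: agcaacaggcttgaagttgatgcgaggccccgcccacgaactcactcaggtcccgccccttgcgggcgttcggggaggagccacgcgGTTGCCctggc
Dnah10: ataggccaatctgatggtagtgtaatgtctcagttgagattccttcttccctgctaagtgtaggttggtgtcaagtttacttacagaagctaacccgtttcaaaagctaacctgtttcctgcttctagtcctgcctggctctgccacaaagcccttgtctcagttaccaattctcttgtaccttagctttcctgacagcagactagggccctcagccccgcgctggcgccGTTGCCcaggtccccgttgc
Iqcg: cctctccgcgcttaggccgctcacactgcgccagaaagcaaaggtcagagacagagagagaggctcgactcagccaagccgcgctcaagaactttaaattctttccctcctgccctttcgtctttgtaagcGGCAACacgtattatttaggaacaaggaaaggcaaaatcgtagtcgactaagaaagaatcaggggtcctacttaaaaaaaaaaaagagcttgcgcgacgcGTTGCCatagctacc
Ppil6 shares this stretch with Smpd2, a sphingomyelinase gene transcribed the other way, which read 25.3, 34.9 and 29.9 in chow and 24.1, 31.0 and 28.9 under high-fat diet (-0.09 ± 0.11). The divergent neighbour was thus within its own spread.

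For the contractile genes the motif considered was the CArG box of serum response factor, searched on both strands. It was found in 2 of 16 listed genes with a RefSeq promoter (12.5%), against 1.62% of 27025 genes. The 2 genes were Myl9 and Myl6, both myosin light chains. Myl9 (chromosome 2, 156775420 to 156781658, GRCm38) read 26.2, 35.4 and 28.3 in chow and 37.6, 60.1 and 126 under high-fat diet (1.12 ± 0.30), and Myl6 read 1166, 1160 and 1088 against 1223, 1246 and 1250 (0.12 ± 0.09). The Myl9 stretch (chr2:156775214-156775419, plus strand) is shown with the box in capitals, beginning 161 bases before the RefSeq start.
Myl9: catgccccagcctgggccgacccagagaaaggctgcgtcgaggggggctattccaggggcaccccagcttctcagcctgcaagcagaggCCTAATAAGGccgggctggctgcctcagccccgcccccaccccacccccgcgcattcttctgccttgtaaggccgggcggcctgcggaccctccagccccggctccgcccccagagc
The groups did not overlap for either gene.

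The remaining genes named for lower values had varied roles. Fabp7, the fatty acid binding protein of astrocytes and radial glia (chromosome 10, 57784881 to 57788450, GRCm38), read 348, 367 and 314 in chow and 193, 256 and 252 under high-fat diet. The difference was -0.56 ± 0.17 (limma adjusted p = 0.685) and -0.61 ± 0.21 without the liver-rich pair. The groups did not overlap. Col5a3, a chain of type V collagen, read 4.36, 5.18 and 4.79 against 2.24, 2.09 and 3.14, opposite in direction to Col3a1 and Col1a2, at -0.74 ± 0.20 (-0.92 without the pair). Tk1, thymidine kinase of dividing cells, read 3.34, 1.90 and 2.16 against 1.39, 0.63 and 1.12 (-0.75 ± 0.19). Csad, the enzyme that makes the precursor of taurine, read 35.1, 28.1 and 25.8 against 22.9, 21.7 and 24.2 (-0.35 ± 0.10). Mlxipl, the carbohydrate-responsive transcription factor ChREBP, read 7.56, 2.72 and 2.04 against 1.46, 1.37 and 1.89 (-0.84 ± 0.25), and its highest value was that of the liver-rich chow library. The difference of Mlxipl was -0.48 without the pair. Klk14, a serine protease, and Fbxw4, an F-box protein, differed by -0.64 ± 0.17 and -0.29 ± 0.08, with no overlap. The genes of this paragraph were also named for small p in these libraries, so lack of overlap is not separate support.

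Lipid and amino acid enzymes followed with smaller differences. On the list for fatty acid oxidation and targets of PPAR receptors the median was -0.03. At p under 0.05, 3 of 32 genes were lower, Fabp7 among them, and 0 higher. The shares over all rows were 1.67% and 2.23%. The other 2 were Acot1, a cytosolic acyl-CoA thioesterase (25.6, 22.6 and 18.9 against 14.0, 17.8 and 19.2, -0.38 ± 0.13), and Ehhadh, a peroxisomal oxidation enzyme, whose highest value, 9.93, was in the liver-rich chow library. Acly, the enzyme that makes cytosolic acetyl-CoA for lipid synthesis, had a difference of 0.47 ± 0.18, but a single library, high-fat replicate 1 at 266, stood apart from the range of 123 to 172 of the other 5. In a list of amino acid catabolism, chosen after values had been seen, 18 of 23 genes were lower, with a median of -0.13. At p under 0.05, 4 were lower, against 1.67% of all rows. Of these 4, Gpt, alanine aminotransferase, read 18.9, 22.2 and 19.2 against 11.6, 14.6 and 18.7 (-0.42 ± 0.17, and -0.63 without the liver-rich pair). Cth, of cysteine synthesis, read 47.7 in the liver-rich chow library and 5.501 to 12.3 in the other 5. Without the liver-rich pair the median of this amino acid list was -0.11, with 2 genes lower and 1 higher at p under 0.05. Over all rows 5.67% were then lower and 0.569% higher at this p. Cholesterol synthesis (median 0.07), glycolysis (0.06) and nuclear-encoded oxidative phosphorylation (0.03) had 1, 1 and 0 genes higher at p under 0.05 and 0 lower. Over all rows 2.23% were higher and 1.67% lower.

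Clock genes had small differences between the diets at this hour. Of 25 core clock genes, 0 had p under 0.05 in either direction, 11 were higher and 14 lower, and the median was -0.06. Over all rows 3.9% had p under 0.05 and 47.1% had higher values. Dbp, an output transcription factor of the clock, read 39.1, 49.999 and 39.7 in chow and 44.0, 50.5 and 44.9 under high-fat diet (0.12 ± 0.15). Arntl, which encodes BMAL1, read 19.8, 23.6 and 23.1 against 20.6, 21.0 and 19.0 (-0.13 ± 0.14), and Nr1d1, its repressor REV-ERB alpha, read 74.4, 89.7 and 78.1 against 82.8, 87.6 and 77.2 (0.03 ± 0.09). The Period genes were at -0.14 ± 0.20 for Per1, -0.16 ± 0.20 for Per2 and -0.28 ± 0.20 for Per3. Chow replicate 1, one of the liver-rich libraries, was the lowest chow library for all 3 Period genes (Per3 at 10.6, against 16.4 and 17.3), and without the liver-rich pair Per3 differed by -0.51 ± 0.23 (limma adjusted p = 0.776). Tef, another output factor, was lower with no overlap, at 169, 189 and 182 against 148, 167 and 157 (-0.20 ± 0.12). Fbxl21, also on the list, was higher with no overlap, at 9.94, 9.71 and 11.5 against 13.7, 11.7 and 12.0 (0.24 ± 0.25). Each was the 1 gene of 25 in its direction, beside 3.22% of all rows lower and 3.15% higher without overlap. Differences within these standard errors were not detectable with these libraries.

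Peptides of the SCN varied widely between libraries of one diet. Vip read 16.8, 41.3 and 9.88 in chow and 50.2, 46.4 and 17.3 under high-fat diet (0.81 ± 0.61), and Avp read 2675, 2372 and 821 against 1192, 3327 and 1133 (-0.07 ± 0.72). Replicate 3 was the lowest of its diet for both. Prok2, a peptide of clock output, read 1.38, 5.95 and 1.76 against 4.81, 6.21 and 2.98 (0.62 ± 0.36), and Nms, neuromedin S, 4.92, 8.06 and 2.36 against 7.92, 8.02 and 2.97. On the SCN list 1 of 22 genes had p under 0.05, against 3.9% of all rows. This was Avpr1a, a vasopressin receptor, at 3.82, 4.02 and 4.22 against 7.92, 5.03 and 4.503 (0.41 ± 0.20), with no overlap. Higher values were found in 13 genes of the SCN list with all libraries (median 0.12) and in 16 without the liver-rich pair (median 0.24). Over all rows the shares with higher values were 47.1% and 34.3%. Markers of neighbouring regions also spread widely within a diet. Hcrt, of the lateral hypothalamus, read 96.2, 23.2 and 25.4 against 1.93, 57.2 and 0.98, Agrp, of the arcuate nucleus, 19.0 in chow replicate 2 and 0.74 to 1.54 in the other 5, and Slc17a7, the vesicular glutamate transporter of cortex and thalamus, 35.2, 3.94 and 34.4 against 0.79, 0.73 and 46.7. Gh, growth hormone of the pituitary, read 0.81, 2.53 and 0 against 24.8, 2.54 and 78.9. The part of dissection in any difference of a regional gene was not tested.

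Most inflammatory and interferon genes had higher values under high-fat diet. Of 25 genes, 21 were higher, 7 at p under 0.05 and 4 without overlap, with a median of 0.20. Over all rows 2.23% were higher at this p and 3.15% lay above chow in every high-fat library. Without the liver-rich pair the list median was 0.14 and 0 of the 25 had p under 0.05. Oasl2, an interferon-induced gene, read 3.75, 5.03 and 4.21 in chow and 6.50, 6.21 and 8.64 under high-fat diet (0.60 ± 0.23), and Isg15, an interferon-induced ubiquitin-like protein, read 7.96, 10.8 and 7.32 against 11.1, 11.9 and 17.1. Neither overlapped. Gfap, the astrocyte filament protein that rises in reactive glia, read 239, 347 and 153.5 against 311, 395 and 593, and C4b, a complement component, 29.0, 27.6 and 17.3 against 28.4, 29.5 and 54.0. The groups overlapped for both Gfap and C4b. High-fat replicate 3, the liver-rich library, was the highest of the 6 for all 4 of these genes. It was also the highest on the meningeal, smooth muscle and border macrophage lists, and their part in these differences was not tested. Gfap is also on the astrocyte list, where 4 of 15 genes had higher values and 11 lower (median -0.08). Without the liver-rich pair 2 astrocyte genes had higher values (median -0.18). Over all rows 47.1% had higher values with 6 libraries and 34.3% without the pair.

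On the insulin, leptin and STAT3 list 3 of 25 genes had p under 0.05, all with higher values. In 4 every high-fat library lay above chow. Over all rows the shares in this direction were 2.23% and 3.15%. Without the liver-rich pair 0 of the 25 had p under 0.05, against 6.24% of all rows. Higher values were then found in 10 of the 25, against 34.3% of all rows. Stat3, the transcription factor downstream of the leptin receptor (chromosome 11, 100885098 to 100939540, GRCm38), read 33.0, 37.6 and 33.6 in chow and 39.9, 42.1 and 41.9 under high-fat diet (0.24 ± 0.09, limma adjusted p = 0.913). Lepr, the leptin receptor, read 0.86, 1.60 and 1.54 against 1.77, 2.80 and 5.61 (0.83 ± 0.32), and meningeal and choroid plexus cells also make it. Without the liver-rich pair the 2 differed by 0.20 and 0.34. Socs3, the feedback inhibitor of this pathway, differed by 0.19 ± 0.15 with overlapping groups. Among activity-induced genes Gadd45b, a stress-induced regulator, read 6.24, 6.77 and 5.96 against 8.21, 8.69 and 12.7 (0.55 ± 0.19, and 0.36 ± 0.22 without the liver-rich pair). On that list 2 of 29 genes had p under 0.05, against 3.9% of all rows. Hspb1, a small heat shock protein that smooth muscle and endothelium also make, read 13.02, 26.8 and 20.3 against 29.7, 35.2 and 47.5 (0.90 ± 0.30), and differed by 0.46 ± 0.34 without the liver-rich pair. It was the 1 gene of 37 on the heat shock and endoplasmic reticulum chaperone list whose groups did not overlap. Bag3, a co-chaperone, was the other with p under 0.05. Over all rows 3.15% lay above chow in every high-fat library and 3.9% had p under 0.05, so neither count sets the list apart. Without the pair 0 of the 37 had p under 0.05. Glucocorticoid-responsive genes had 0 of 20 at p under 0.05, beside the same 3.9% of all rows.

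Several other transcripts moved with single libraries. The nuclear-retained long non-coding RNAs, a list chosen after values had been seen, summed to 1244, 3107 and 3928 in chow and 1815, 1767 and 1857 under high-fat diet. Chow replicate 1 was thus below all high-fat libraries on this sum, and chow replicates 2 and 3 above them. Meg3, an imprinted long non-coding RNA of neurons, read 313, 1110 and 1541 against 593, 495 and 606, and differed by -0.53 ± 0.53 with all libraries and by -1.27 ± 0.58 without the liver-rich pair (limma adjusted p = 0.776). All 17 oligodendrocyte genes had higher values with 6 libraries (median 0.21, 0 at p under 0.05). Without the pair 0 of 17 had higher values (median -0.22). Over all rows 47.1% had higher values with 6 libraries and 34.3% without the pair. Haemoglobin transcripts marked residual blood: Hba-a1 read 3960, 1396 and 836 against 3424, 3095 and 1811, and the blood list had a median of 0.56 and of 1.59 without the pair. These values stand beside the 4-library comparison, in which lower values predominated, and their part in it was not tested.

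**Figure D3:**
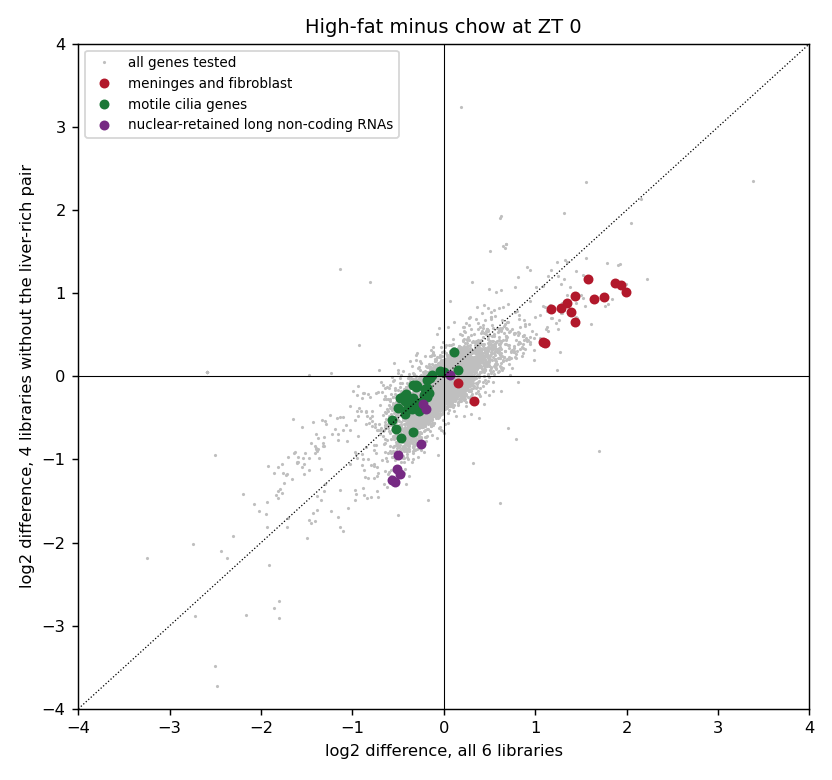
Log2 difference of each gene, high-fat minus chow at ZT 0, with all 6 libraries (horizontal) and with the 4 left without the liver-rich pair (vertical); 2 of 14964 genes lie outside the axes, short non-coding RNAs are left out, and the dotted line marks equal values. The meningeal genes shrink but stay mostly above 0 (median 1.42 and 0.85), the cilia genes lie close to the line (-0.30 and -0.24), and the nuclear-retained RNAs lie below it (-0.47 and -0.95).

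The largest fitted differences among named rows were those of microRNA precursors, Mir434 and Mir6944. The row with the smallest p of all was Mir6944. It read 2411, 0 and 1333 in chow and was listed at 0 in all 3 high-fat libraries. Mir434 was listed at 0 in all 3 chow libraries and read 1923, 4435 and 2368 under high-fat diet. A library prepared from polyadenylated RNA is not designed to capture such short products. Low values of short single-exon RNA genes in a library rise in equal steps. In units of each library's own step, the Mir434 values were 42.9, 85.8 and 42.9, and the Mir6944 values 40.4 and 20.2. The middle Mir434 value was thus 2 times the others, and the first Mir6944 value 2 times the second, as whole multiples of one amount would be. Among the other 30 libraries Mir434 was above 0 in 3 and Mir6944 in 0. The hairpins are shown from RefSeq (GRCm38.p6) because FPKM divides by length. Mir434 (chr12:109594506-109594599, plus strand) has 94 bases and lies antisense to a coding exon of Rtl1, and Mir6944 (chr13:55477681-55477776, minus strand) has 96 bases and lies in an intron of Dbn1.
Mir434: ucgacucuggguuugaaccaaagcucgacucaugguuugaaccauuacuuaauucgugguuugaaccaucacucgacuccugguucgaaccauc
Mir6944: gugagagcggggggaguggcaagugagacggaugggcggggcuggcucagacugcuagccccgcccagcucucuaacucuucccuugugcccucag
Their log2 differences (11.41 ± 2.61 and -7.21 ± 1.39) rest on such values, and neither passed over all genes (limma adjusted p = 0.576 and 0.296). Mir6944 passed the low-value filter only through the chow libraries at ZT 0 in which it was above 0. Its SE and p pool the spread over 12 groups, and every group but chow at ZT 0 read 0 throughout. They therefore do not measure the spread among its chow values, and its rank by p carries no weight.

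Whether a difference belonged to this hour was tested against the mean diet difference at the other 5 times in the same fit. Again 0 of 15173 rows (0%) passed, with a smallest adjusted p of 0.597, and 289 (1.9%) were higher and 287 (1.89%) lower at ZT 0 at an unadjusted p under 0.05, 576 (3.8%) in all. For the meningeal list 14 of 16 genes were higher at ZT 0 than elsewhere at p under 0.05, and for smooth muscle 10 of 18. On the cholesterol and fatty acid synthesis list 6 of 31 were higher in this contrast. At the other times 6 of those 31 were lower under high-fat diet at this p. The shares over all rows were 1.9% and 1.72%. These contrasts use the same 6 libraries at ZT 0, the liver-rich pair included. The diet difference of Lyz2 at ZT 0 exceeded its mean over the other times by 1.24 ± 0.38 (limma adjusted p = 0.999). That of Cytl1 did so by 1.998 ± 0.57 (limma adjusted p = 0.944). Both genes were also higher under high-fat diet at ZT 4 (0.82 and 0.81) and ZT 20 (0.54 and 0.82). At ZT 8, 12 and 16 Lyz2 stood at -0.15, -0.42 and -0.23, and Cytl1 at 0.09, -0.69 and -0.79. For Ppil6 the contrast was -0.75 ± 0.17 (limma adjusted p = 0.597), and 9 of the 34 cilia genes were lower at p under 0.05. Lyz2, Cytl1 and Ppil6 were named for small p at ZT 0, and a contrast that reuses those libraries leans towards ZT 0. Rspo4, a secreted Wnt enhancer like Rspo2, differed by 0.66 ± 0.23 at ZT 0 and by -0.34 ± 0.10 at the other times. It was named for a small p in this same contrast (1.01 ± 0.25, limma adjusted p = 0.851), so the opposite signs are not separate support.

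The meningeal list did not hold one direction over the day. Its median difference between the diets was 1.42 at ZT 0, 0.87 at ZT 4, 0.10 at ZT 8, -0.72 at ZT 12, -0.55 at ZT 16 and 0.42 at ZT 20. Smooth muscle genes had the same order of signs, from 0.66 at ZT 0 to -0.25 at ZT 12. The cilia list ran from -0.30 at ZT 0 to 0.45 at ZT 8, where the median of all rows was 0.12.

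**Figure D4:**
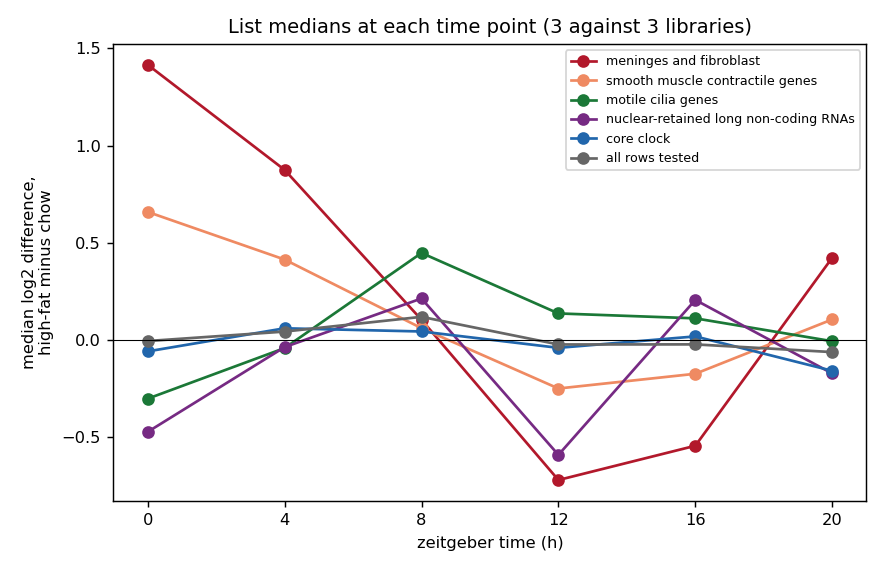
Median log2 difference between high-fat diet and chow over the members of 5 lists and over all rows tested, against zeitgeber time in hours, with 3 libraries per diet at each time. The meningeal and smooth muscle lists fall from 1.42 and 0.66 at ZT 0 to below 0 at ZT 12, and the core clock list stays between -0.16 and 0.06.

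The genes that passed at the other times had differences of the same sign at ZT 0. Over the other 5 times 2 of 15173 rows (0.0132%) passed, Rbm3 and C4b, and 187 (1.23%) were higher and 261 (1.72%) lower at an unadjusted p under 0.05, 448 (2.95%) in all. Rbm3, whose product binds RNA and is induced by cold (X chromosome, 8138975 to 8145880, GRCm38), read 117.3, 108 and 108 in chow and 72.9, 88.0 and 102 under high-fat diet at ZT 0, a difference of -0.35 ± 0.12 beside -0.48 ± 0.06 at the other times. C4b differed by 0.55 ± 0.23 at ZT 0 and by 0.59 ± 0.10 at the others. Stat3 differed by 0.24 ± 0.09 and 0.18 ± 0.04. Fabp7 differed by -0.56 ± 0.17 at ZT 0 and by -0.24 ± 0.07 over the others, a contrast of -0.32 ± 0.18. Its sign was not the same at all times: it differed by -0.60, -0.61 and -0.48 at ZT 4, 8 and 12 and by 0.36 and 0.15 at ZT 16 and 20. Cirbp, of the same family, read 142, 150 and 145 against 160, 164 and 149 at ZT 0, so that its difference was 0.11 ± 0.12, beside -0.21 ± 0.05 at the other times (a contrast of 0.32 ± 0.13). For Rbm3, C4b and Stat3 the contrast between ZT 0 and the other times was 0.13 ± 0.14, -0.04 ± 0.25 and 0.06 ± 0.10, each within its standard error of 0.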

How the data were processed

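RNA-seq libraries (stranded mRNA kit, per the labels) were trimmed with Trimmomatic, aligned with TopHat to mm10/GRCm38 and quantified with Cufflinks, per the submitters' processing notes, which name no versions. The authors deposited one table of FPKM values per diet; the unit was taken from these tools and the values, so a difference between the tables cannot be told apart from one between the diets. No counts were used, so the depth is known only as the rough ratio given with the results.

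Each library was rescaled to a sum of 1000000 and taken as log2(value + 1) of the deposited FPKM, and rows with a mean of at least 1 over all 36 libraries were kept. limma 3.58.1 in R 4.3.3 fitted 12 group means with a mean-variance trend (24 residual degrees of freedom, median residual SD 0.188). The fit was first tested on simulated data with known changes. The main fit did not pair libraries by replicate number.

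The members and gene lists were chosen with earlier results of these data known. Named were the 12 rows each way with the smallest p (symbols other than predicted models, outside the liver list, same sign without the liver-rich pair), up to 4 members per list, 12 clock genes, 5 peptides, 3 liver genes, 3 rows each way for ZT 0 against other times, and genes from earlier work. Further list members are examples chosen after their values were seen, as was Cnn1. Promoters and hairpins came from RefSeq and gene positions from GENCODE M21, both GRCm38.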

Additional observations from a re-analysis of the deposited data

How the results depend on the processing

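With FPKM and 3 libraries per diet, depth behind single values is unknown, and an exact permutation test of 3 against 3 cannot go below 0.1. Of 141 named genes, 122 kept their sign under all settings tried. The settings chosen after seeing the data were leaving short RNA rows out before rescaling and the fit of 4 libraries alone.

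The count of genes passing over all rows (0) was 1 with no filter (Gprc5a), 1 in the 6 libraries alone (Mir434), and 4 in the 4 libraries alone without the liver-rich pair (Mir434, Mir3473e, Dynlt1f and a second row of Ccl27b). With the replicate number as a block it was 1 in the 6 libraries and 1 within time points (Mir434 in both). Same-numbered libraries showed no consistent likeness. Correlations of their deviations from the diet means were -0.37, 0.26 and -0.42, and those of other pairs -0.14 to 0.49. Whether libraries of one number shared a batch was not tested. Leaving out 1 library gave 0 to 1 (Mir6944 without chow replicate 2, Mir6406 without high-fat replicate 2), and 0 to 1 for ZT 0 against the other times. The 2 genes of the other times became 1 with deposited values and 1 with the block within time points.

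Genes higher and lower at an unadjusted p under 0.05 (338 and 254) were 584 and 546 with no filter, 165 and 140 with a filter at a mean of 5, and 513 and 89 with deposited values. They were 86 and 857 without the liver-rich pair, and 186 and 1510 in its 4-library fit. With the block within time points 421 were lower. Leaving out 1 library gave 156 to 425 higher and 134 to 1015 lower: 203 and 1015 without chow replicate 1, 413 and 134 without high-fat replicate 1, and 156 and 352 without high-fat replicate 3. No cause was tested.

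Signs reversed without the liver-rich pair, in both fits, for Aspa (-0.11), Avp (0.51), Btg2 (-0.019), Cdh19 (-0.11), Clock (-0.10), Fezf1 (0.082), Mog (-0.15), Nr1d2 (-0.070) and Ugt8a (-0.24), and in the first for Cga (-0.063). With deposited values Cry1 was 0.0059 and Cry2 0.0028. Leaving out 1 library at a time reversed the sign of 11 genes, whose ranges were -0.051 to 1.21 for Alas2, -0.31 to 0.0053 for Aldh1l1, -0.61 to 0.24 for Avp, -0.070 to 0.19 for Clock, -0.16 to 0.017 for Cry2, -0.013 to 1.24 for Drd1, -0.012 to 0.40 for Grp, -0.10 to 0.67 for Nms, -0.023 to 0.11 for Nr1d1, -0.079 to 0.15 for Nr1d2 and -2.70 to 0.13 for Ttr.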
